A study of Rattus norvegicus with 6 samples.

Results

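A set of 42 rat genes that carry out DNA replication and mitosis was followed through RNA-seq of heart muscle. The genes were chosen by name, 16 for replication and 26 for mitosis. Of the 42 genes, 41 were found by symbol among the 33509 genes of the deposited table, and all 41 passed the filter on low counts that left 14488 genes for testing. Expression of Ccnb2, a cyclin of mitotic entry, was not analysed here. The tissue was myocardium of Sprague-Dawley rats. The 3 XHT libraries came from animals with an experimental acute myocardial infarction that were given XHT, and the 3 MOD libraries came from the infarction model alone, so that both groups carried the infarct. XHT stands for Xinhuitong in the title of the series, which concerns coronary heart disease. The labels used here give no dose, no interval after the infarct, no age and no statement on which part of the heart was taken, and no uninjured heart was analysed here. They do not say whether the libraries of a group came from separate animals, so p-values measure the spread between these samples.

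DNA replication starts when CDC6 and its partners load the ring of MCM2, MCM3, MCM4, MCM5, MCM6 and MCM7 onto an origin. CDC45 and the GINS complex then bind the ring and turn it into the active helicase, cyclin E with its kinase drives the step into S phase, and the PCNA clamp holds the polymerases on the template. Later in the cycle CDK1 with its A- and B-type cyclins starts mitosis, kinetochores attach the chromosomes to the spindle, and the checkpoint kinases delay separation until every chromosome is attached. In cultured mammalian cells replication genes are mostly switched on by E2F factors before S phase, and mitotic genes by B-MYB and FOXM1 with the MuvB proteins. These proteins reach promoters through an element called the CHR and through neighbouring CCAAT boxes bound by NF-Y. Adult cardiomyocytes rarely divide, whereas fibroblasts, macrophages and endothelial cells of an infarcted heart do.

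The libraries held 16550007 to 17724689 counts each, with the highest total in XHT 3 and the lowest in MOD 2. Levels below are CPM, counts scaled to a common library size by TMM, a method that takes most genes as unchanged, and 0 counts in a library allow a level of up to 0.148 to 0.204 CPM (3 counts; counting error only). The first principal component of all tested genes held 74.4% of the variance and separated the groups, with XHT 2 and MOD 3 the libraries of each group nearest to the other. Among markers of the labelled tissue, the summed level of 11 cardiomyocyte genes was 45393 to 73522 CPM in XHT and 2618 to 31428 CPM in MOD, where MOD 3 held the highest value, and none of the 11 was at 0 in any library. The number of calls over all genes depended on single libraries, and those values stand beside the first count.

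Expression of the 41 genes was lower in XHT than in MOD for most members of both classes. With edgeR's quasi-likelihood fit and p-values adjusted over all tested genes after Benjamini and Hochberg (threshold 0.05), 25 of the 41 fell, 1 rose and 15 did not pass. Across all tested genes 16.1% were called lower and 12.4% higher. With libraries scaled to their total counts instead, which moved the median of all tested genes to -0.42, 33 members fell, against 29.8% called lower and 6.38% called higher. The log2 fold change of XHT over MOD was negative for 40 of the 41, with a median of -2.39, while the median of all tested genes was -0.02. The groups did not overlap, with every XHT library below every MOD library, for 33 members, as for 26.6% of all tested genes. Every XHT library lay above every MOD library for 1 member, as for 24.7% of all tested genes. The count of calls depended on which libraries entered. Without XHT 1 edgeR called 0 members lower or higher, with 30 members at an unadjusted p under 0.05, and 0.0267% of tested genes called lower and as many higher. Without XHT 3, MOD 1 or MOD 2 the members called lower were 2 each time, Mcm3 and Mcm5, against backgrounds of 1.92%, 2.55% and 3.87% called lower. Without XHT 2 or without MOD 3 the count was 32, against 14.2% and 22.9%. DESeq2's Wald test, run on the same counts, called 33 lower against 16.6%, and edgeR with DESeq2 size factors, without the count filter or with its legacy fit called 25 each time, against 15.7%, 10.7% and 15.4%. In each of the 6 fits without a library 38 to 40 members had a negative log2 fold change. The single calls given below carry the same dependence.

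**Figure D1:**
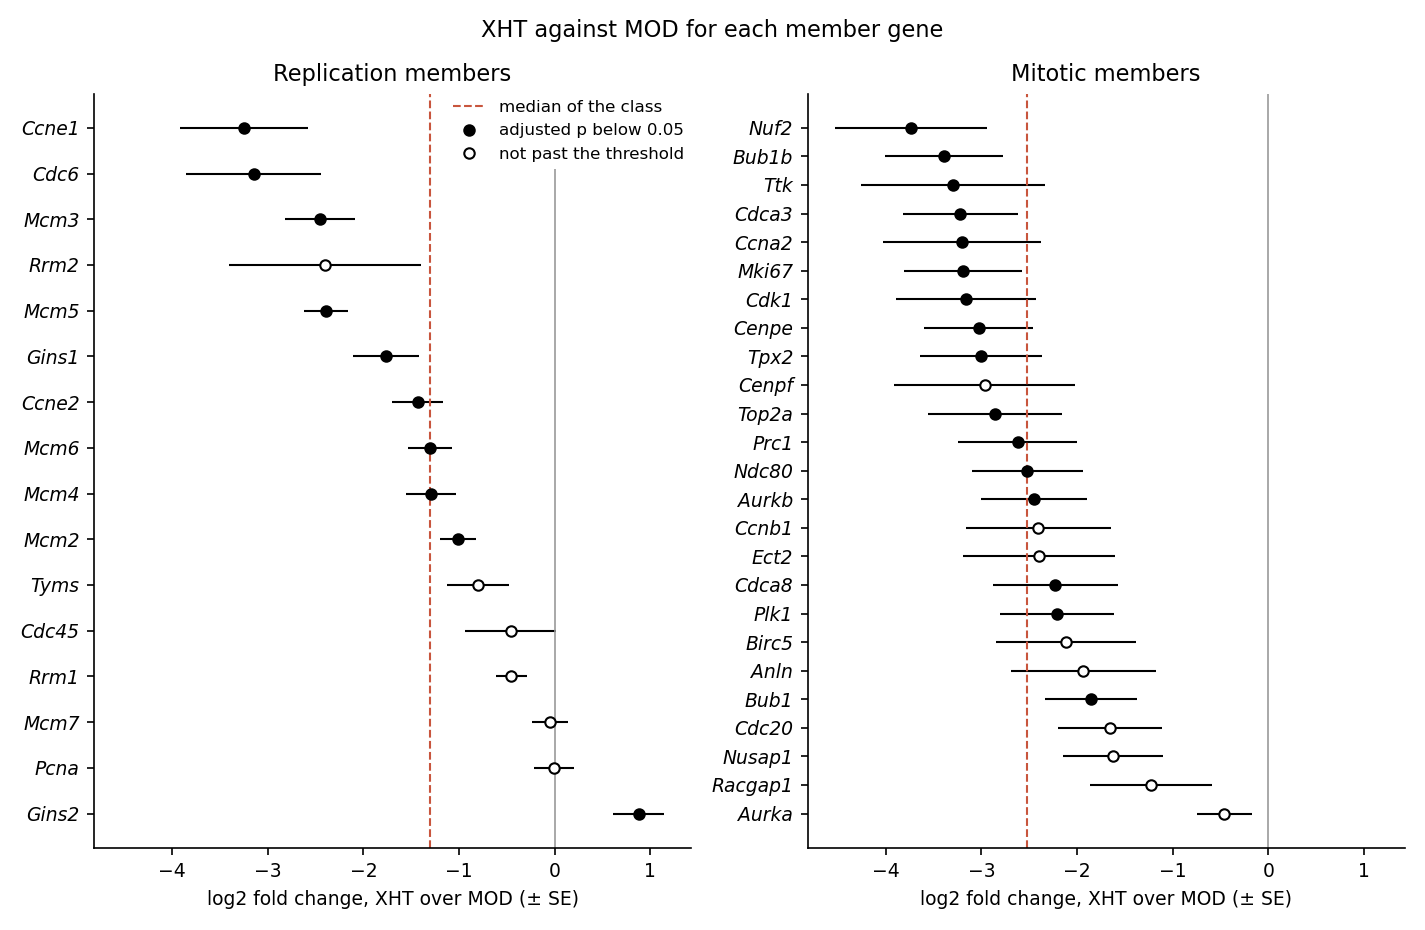
Log2 fold change of XHT over MOD (x axis, points with bars of 1 standard error, n = 3 libraries a group) for the 16 replication and 25 mitotic genes analysed, filled where the adjusted p was below 0.05. The mitotic genes all lie left of 0 with a median of -2.52, and the replication genes spread between -3.25 and 0.88 with a median of -1.30.

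The classes differed in spread. Of the 16 replication genes, 9 fell, 1 rose and 6 did not pass, and their log2 fold changes ran from -3.25 to 0.88 with a median of -1.30. Of the 25 mitotic genes, 16 fell and 9 did not pass, and all 25 had a negative log2 fold change, with a median of -2.52. The shares over all tested genes were 16.1% called lower and 12.4% called higher. Averaged over each class, the mean log2 CPM of the replication genes was 2.37, 2.52 and 2.23 in XHT 1, 2 and 3, against 3.66, 4.04 and 3.43 in MOD 1, 2 and 3. The mean log2 CPM of the mitotic genes was 0.07, 1.58 and -0.34 in XHT 1, 2 and 3, against 3.07, 3.70 and 2.30 in MOD 1, 2 and 3. The groups did not overlap for either class. Within the XHT group the replication mean differed little between libraries, while the mitotic mean was over 1 log2 unit higher in XHT 2 than in the other two.

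The distance between the classes was wider on average in XHT, but the groups overlapped. Mean replication level minus mean mitotic level was 2.30, 0.94 and 2.58 log2 units in XHT 1, 2 and 3, against 0.60, 0.34 and 1.13 in MOD 1, 2 and 3. XHT 2 therefore lay below MOD 3. The group means were 1.94 ± 0.88 in XHT and 0.69 ± 0.40 in MOD (SD, n = 3 each), a difference of 1.25. Between the classes' median log2 fold changes the distance was 1.22, and 2.15 without XHT 2. Counted in reads, the mitotic genes took 13.0%, 30.7% and 9.72% of the counts of all 41 genes in XHT 1, 2 and 3, against 46.2%, 52.2% and 35.6% in MOD 1, 2 and 3. On that measure every XHT library lay below every MOD library. Genes with many reads weigh most in it. Pcna, Mcm7, Rrm1 and Gins2, none of them called lower, held 2813, 1474, 1383 and 1298 counts over the XHT libraries. Over the MOD libraries they held 3659, 1965, 2434 and 914 counts. Because the members were chosen with results known, no p is given for these averages.

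**Figure D2:**
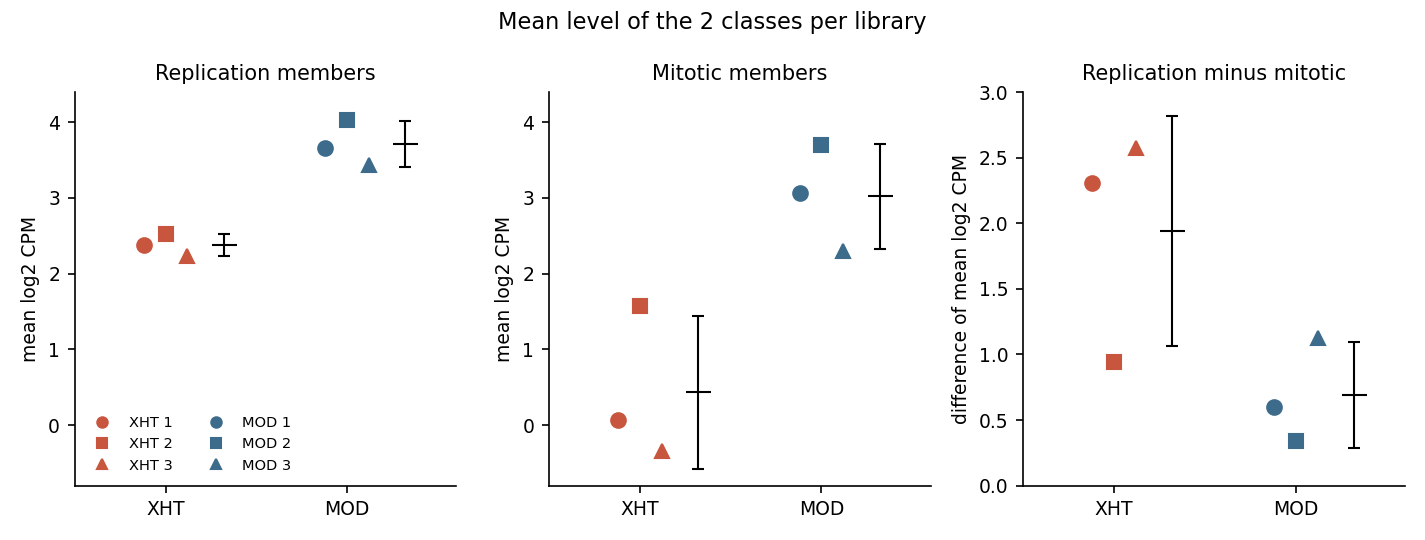
Mean log2 CPM of the 16 replication genes (left) and of the 25 mitotic genes (middle), and the first minus the second (right), in each library, with group means and SD (n = 3 each). XHT lies below MOD in the left and middle panels, and in the right panel XHT 2 at 0.94 lies below MOD 3 at 1.13.

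The promoters of the members were searched for the elements named above, because the classes are known to differ in them. RefSeq's table for the GRCr8 build, 250 bases before to 50 after the start of each gene, had an entry for 34 of the 42 members, 12 of the replication and 22 of the mitotic genes (Ccnb2 included). The E2F element was taken as TTGGCGC or TTCCCGC or TTCGCGC or TTGCCGC, and the CHR as TTTGAA or TTCGAA. The CCAAT box was taken as CCAAT, and all were searched on both strands. E2F matches that overlap on opposite strands count separately, and a CHR that reads the same on both strands counts once. The printed promoters are those of Mcm5 and Mcm3, the replication genes of lowest p, of Gins2, the member that rose, and of Mki67, Cdk1 and Plk1, widely used marks of dividing cells. Matches are in capitals, in the direction of transcription.
Mcm5 (chr19:13488563-13488862, plus strand): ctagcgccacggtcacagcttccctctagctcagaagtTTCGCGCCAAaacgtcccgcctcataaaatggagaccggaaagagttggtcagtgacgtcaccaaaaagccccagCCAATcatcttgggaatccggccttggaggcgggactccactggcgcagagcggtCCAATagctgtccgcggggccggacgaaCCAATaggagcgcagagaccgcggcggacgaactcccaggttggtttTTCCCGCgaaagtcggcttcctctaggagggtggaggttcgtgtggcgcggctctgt
Mcm3 (chr9:30733697-30733996, minus strand): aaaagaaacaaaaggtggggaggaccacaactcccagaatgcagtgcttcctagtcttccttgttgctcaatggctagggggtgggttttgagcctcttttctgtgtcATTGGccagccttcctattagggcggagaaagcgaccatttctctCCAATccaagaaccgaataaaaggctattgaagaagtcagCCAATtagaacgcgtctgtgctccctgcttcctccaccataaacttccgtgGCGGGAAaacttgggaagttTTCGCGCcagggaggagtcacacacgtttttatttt
Gins2 (chr19:65548003-65548302, minus strand): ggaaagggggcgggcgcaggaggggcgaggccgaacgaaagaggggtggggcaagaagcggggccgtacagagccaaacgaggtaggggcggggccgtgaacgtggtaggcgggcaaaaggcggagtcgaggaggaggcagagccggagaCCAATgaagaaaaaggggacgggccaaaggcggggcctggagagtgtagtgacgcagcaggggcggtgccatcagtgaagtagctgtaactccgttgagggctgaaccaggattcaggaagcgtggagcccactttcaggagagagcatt
Mki67 (chr1:199952544-199952843, minus strand): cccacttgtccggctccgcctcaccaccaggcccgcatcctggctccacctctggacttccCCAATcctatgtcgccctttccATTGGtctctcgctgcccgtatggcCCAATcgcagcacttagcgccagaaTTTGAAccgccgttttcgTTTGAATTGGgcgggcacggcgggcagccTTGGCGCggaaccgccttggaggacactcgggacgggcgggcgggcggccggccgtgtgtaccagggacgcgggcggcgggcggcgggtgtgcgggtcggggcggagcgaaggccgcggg
Cdk1 (chr20:19265043-19265342, plus strand): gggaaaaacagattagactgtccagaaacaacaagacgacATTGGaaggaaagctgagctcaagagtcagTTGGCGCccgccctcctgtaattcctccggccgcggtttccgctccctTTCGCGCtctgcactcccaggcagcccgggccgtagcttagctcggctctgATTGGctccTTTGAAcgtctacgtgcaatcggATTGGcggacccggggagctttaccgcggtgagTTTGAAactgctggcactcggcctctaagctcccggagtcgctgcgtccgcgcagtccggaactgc
Plk1 (chr1:186147408-186147707, plus strand): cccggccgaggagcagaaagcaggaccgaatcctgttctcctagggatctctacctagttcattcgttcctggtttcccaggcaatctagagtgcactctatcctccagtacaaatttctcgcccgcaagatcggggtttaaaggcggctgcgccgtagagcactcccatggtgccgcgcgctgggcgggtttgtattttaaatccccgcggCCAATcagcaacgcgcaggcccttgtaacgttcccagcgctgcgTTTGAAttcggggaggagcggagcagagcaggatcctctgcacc

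In these windows Mcm5 held E2F matches that began 212, 209 and 7 bases before its start and 3 CCAAT boxes. Its matches at 212 and 209 overlapped. Mcm3 held E2F matches 6 bases before and 14 bases after its start and 3 CCAAT boxes. Neither gene had a CHR match. The Gins2 window held 1 CCAAT box, 100 bases before the start, and no E2F or CHR match. The Cdk1 window held CHR matches 72 and 16 bases before the start, E2F matches 180 and 132 bases before it, and 3 CCAAT boxes. The Mki67 window held CHR matches 117 and 99 bases before the start, 1 E2F match 70 bases before it and 4 CCAAT boxes. The Plk1 window held 1 CHR match that began 6 bases after the start and 1 CCAAT box.

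Over the members with an entry, an E2F match stood in 8 of 12 replication promoters (66.7%) and in 4 of 22 mitotic promoters (18.2%), and in 9.52% of all 33469 promoters of the table. A CHR match stood in 3 of 12 replication promoters (25.0%) and 17 of 22 mitotic promoters (77.3%), and in 19.7% of all promoters. At least 2 CCAAT boxes stood in 6 of 12 (50.0%) and 13 of 22 (59.1%), and in 11.2% of all promoters. From 100 bases before to 50 after the start these boxes stood in 41.7% of replication, 27.3% of mitotic and 3.75% of all promoters, so that the order of the classes turned. In that window the CHR share was 8.33% in replication promoters and 77.3% in mitotic promoters. The replication windows without an E2F match were those of Cdc45, Gins2, Pcna and Ccne1. The mitotic windows without a CHR match were those of Ccnb1, Bub1, Aurka, Cenpe and Cdca3. Each window follows the annotated start of its gene, and the starts were not checked. A lack of a match therefore does not show that the promoter in use lacks the element. No E2F match overlapped a CHR match. An E2F match overlapped a CCAAT box in Ect2 and Mcm7, and a CHR match overlapped one in Cdca8 and Mki67. A match here is a run of letters and not a measured binding site, and binding was not measured in these samples.

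Of the 6 subunits of the helicase ring, 5 fell and Mcm7 did not pass, beside 16.1% of all tested genes called lower. Mcm5 had 4.19, 4.21 and 3.40 CPM in XHT 1, 2 and 3, against 20.0, 25.0 and 17.1 CPM in MOD 1, 2 and 3. Its groups were far apart, and its log2 fold change of -2.39 ± 0.23 (SE) had the lowest adjusted p of all members, 0.00802. Mcm3 had 4.52, 5.02 and 2.31 CPM in XHT 1, 2 and 3, against 21.8, 28.0 and 15.1 CPM in MOD 1, 2 and 3, with XHT 3 the lowest of the 6 libraries and a log2 fold change of -2.45 ± 0.37 (adjusted p = 0.0109). Mcm5 and Mcm3 were the members called lower in every fit that left out a library other than XHT 1.

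Mcm6, Mcm4 and Mcm2 fell with smaller log2 fold changes. Mcm6 had 11.0, 11.6 and 7.76 CPM in XHT 1, 2 and 3, against 23.0, 30.2 and 21.6 CPM in MOD 1, 2 and 3, a log2 fold change of -1.30 ± 0.23 (adjusted p = 0.0142). Mcm4 had 11.8, 11.4 and 8.10 CPM in XHT 1, 2 and 3, against 24.5, 33.0 and 19.2 CPM in MOD 1, 2 and 3, a log2 fold change of -1.30 ± 0.26 (adjusted p = 0.0175). In both genes every XHT library lay below every MOD library. Mcm2 had 15.1, 16.3 and 17.6 CPM in XHT 1, 2 and 3, against 28.7, 40.2 and 29.8 CPM in MOD 1, 2 and 3, a log2 fold change of -1.01 ± 0.19 (adjusted p = 0.0155), again without overlap.

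Mcm7 was the subunit of highest FPKM in both groups and the one that did not pass. It had 39.8, 29.4 and 27.8 CPM in XHT 1, 2 and 3, against 32.8, 36.3 and 31.3 CPM in MOD 1, 2 and 3, so that XHT 1 was the highest of the 6 libraries and XHT 3 the lowest. Its log2 fold change was -0.05 ± 0.19 (adjusted p = 0.854), and its sign turned when single libraries were left out. The microRNA genes Mir25, Mir93 and Mir106b lie inside Mcm7 on its strand in the deposited table and held 34, 1 and 1 counts over all libraries. Compared per length on the deposited FPKM scale, Mcm7 was 5.41, 3.84 and 4.52 times the mean of the other 5 subunits in XHT 1, 2 and 3, against 1.75, 1.46 and 1.92 times in MOD 1, 2 and 3. The highest subunit was 12.1, 8.89 and 14.2 times the lowest in XHT, against 2.09, 1.85 and 2.45 times in MOD. Levels of the 6 subunits were thus spread more widely in every XHT library than in any MOD library.

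**Figure D3:**
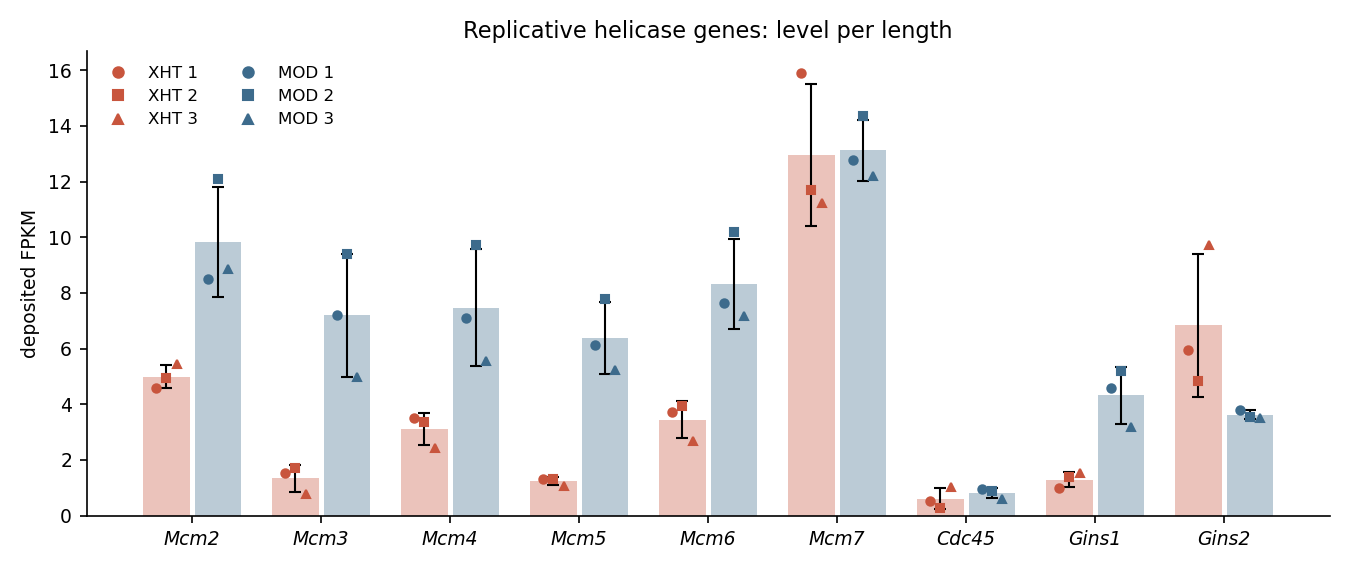
Deposited FPKM, a level per gene length, of the helicase genes: points are libraries, bars are group means and error bars are SD (n = 3 each), with XHT left of MOD. The XHT and MOD points of Mcm7 overlap while the other 5 subunits lie lower in XHT, and Gins2 lies above Gins1 in every XHT library.

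The genes that load and activate the ring did not move together. CDC6 loads the ring at origins, and Cdc6 was low throughout, with 2, 12 and 2 counts in XHT 1, 2 and 3, against 58, 91 and 35 counts in MOD 1, 2 and 3. It fell, with a log2 fold change of -3.15 ± 0.71 (adjusted p = 0.0226). Gins1 and Gins2 both code for subunits of the GINS complex, and they went opposite ways. Gins1 fell, with 1.06, 1.51 and 1.63 CPM in XHT 1, 2 and 3, against 5.11, 5.68 and 3.55 CPM in MOD 1, 2 and 3 (log2 fold change -1.77 ± 0.34, adjusted p = 0.0163). Gins2 was the member that rose, with 25.1, 20.5 and 40.5 CPM in XHT 1, 2 and 3, against 16.5, 15.1 and 15.2 CPM in MOD 1, 2 and 3 (log2 fold change 0.88 ± 0.26, adjusted p = 0.0460). The groups did not overlap, and XHT 3 was the highest library. With total count scaling the log2 fold change was 0.47 and the call was lost (adjusted p = 0.163). Of the fits without 1 library it was called in that without XHT 2 alone, and without XHT 3 the log2 fold change was 0.56 (adjusted p = 0.105).

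Per length, the FPKM of Gins2 was 6.05, 3.49 and 6.37 times that of Gins1 in XHT 1, 2 and 3, against 0.829, 0.684 and 1.10 times in MOD 1, 2 and 3. Among the 41 members Gins2 ranked 4 by mean FPKM in XHT and 24 in MOD. Cdc45, the third part of the active helicase, had 3.39, 1.76 and 6.53 CPM in XHT 1, 2 and 3, against 6.22, 5.83 and 4.01 CPM in MOD 1, 2 and 3. XHT 3 was the highest and XHT 2 the lowest of the 6 libraries, and it did not pass (log2 fold change -0.46 ± 0.48, adjusted p = 0.479). It overlaps Cldn5 on the other strand by 1425 bases, and Cldn5 was listed at 0 counts in every library. How reads of the shared bases were assigned is unknown. The 0 therefore does not show that Cldn5 was silent, and reads of Cldn5 may be among the counts of Cdc45.

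The clamp and the enzymes of nucleotide supply did not pass. Pcna, the clamp gene, had 59.6, 51.0 and 75.1 CPM in XHT 1, 2 and 3, against 66.1, 69.7 and 51.1 CPM in MOD 1, 2 and 3, with XHT 3 highest and XHT 2 lowest of the 6 libraries (log2 fold change -0.01 ± 0.21, adjusted p = 0.978). Rrm1 and Rrm2 code for the large and small subunits of ribonucleotide reductase, which makes deoxyribonucleotides. Rrm1 had 32.6, 30.7 and 27.5 CPM in XHT 1, 2 and 3, against 42.0, 45.6 and 36.7 CPM in MOD 1, 2 and 3 (log2 fold change -0.45 ± 0.16, adjusted p = 0.0694). Rrm2 had 9, 30 and 0 counts in XHT 1, 2 and 3, against 41, 150 and 72 counts in MOD 1, 2 and 3 (log2 fold change -2.40 ± 1.005, adjusted p = 0.108). Rrm2 stood out by its spread within XHT, where XHT 2 held most of its reads, and the 0 in XHT 3 allows up to 0.204 CPM. Tyms, thymidylate synthase, had 6.12, 4.77 and 2.79 CPM in XHT 1, 2 and 3, against 7.06, 8.05 and 8.80 CPM in MOD 1, 2 and 3 (log2 fold change -0.80 ± 0.33, adjusted p = 0.0984). For Rrm1, Rrm2 and Tyms every XHT library lay below every MOD library, as for 26.6% of all tested genes, even though none passed.

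Both cyclin E genes fell. Ccne1 had 0.133, 0.251 and 0.612 CPM in XHT 1, 2 and 3, against 2.84, 5.14 and 1.59 CPM in MOD 1, 2 and 3 (log2 fold change -3.25 ± 0.67, adjusted p = 0.0183), and here XHT 3 was the highest XHT library. Ccne2 had 2.93, 3.01 and 3.33 CPM in XHT 1, 2 and 3, against 7.90, 10.4 and 6.74 CPM in MOD 1, 2 and 3 (log2 fold change -1.43 ± 0.27, adjusted p = 0.0152). Ccne2 overlaps Ints8 on the other strand by 521 bases, Ints8 held 2614 counts over the 6 libraries, and the labels and files used here do not say whether counting used the strand.

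**Figure D4:**
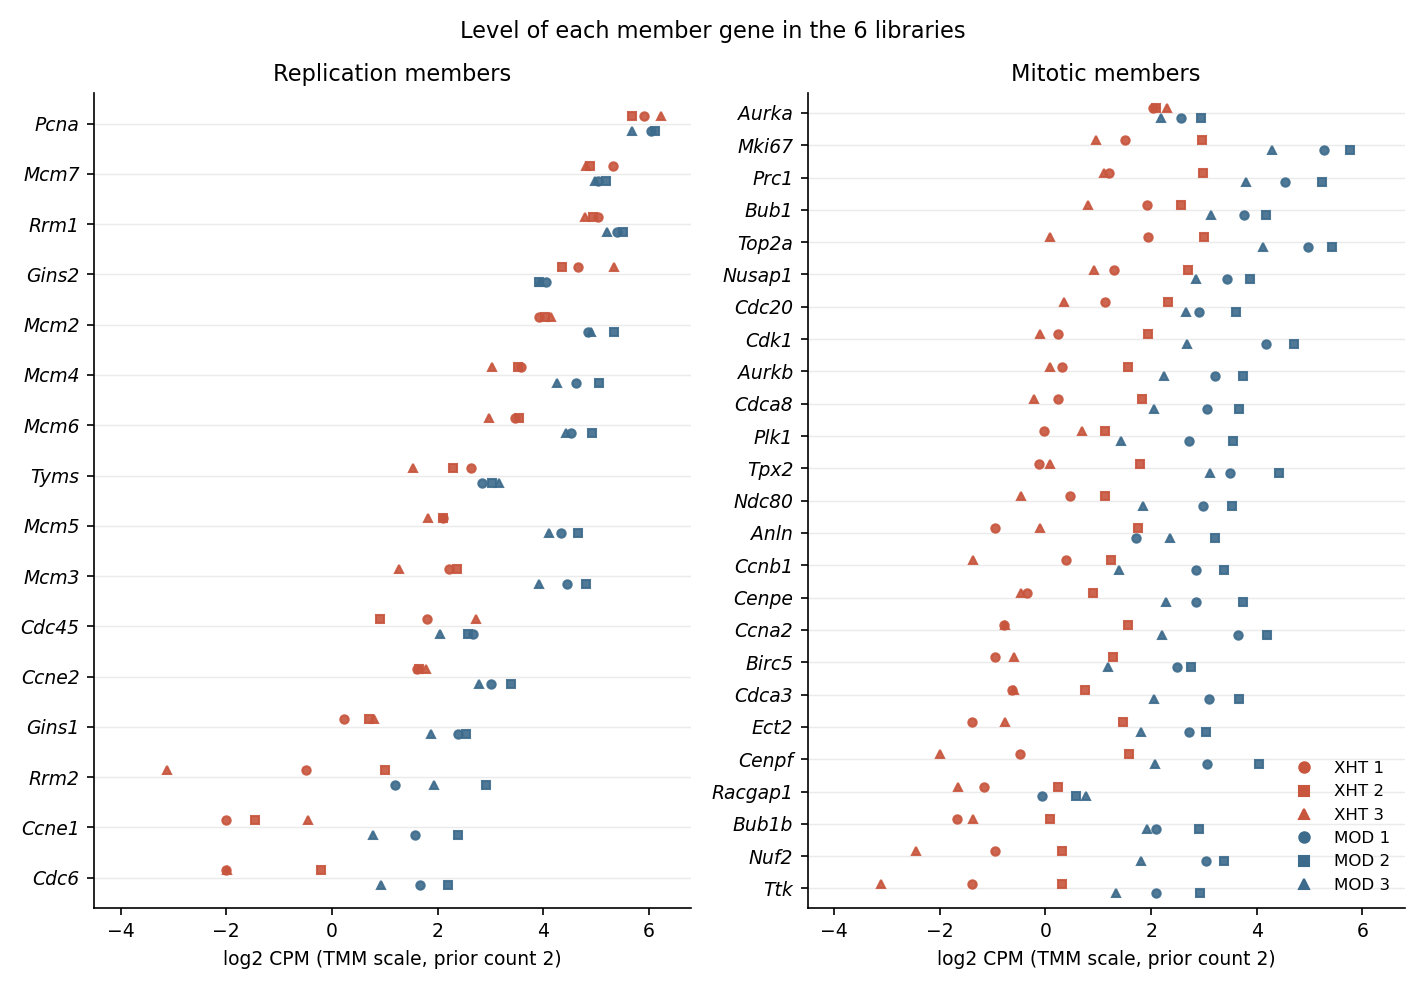
Log2 CPM (TMM scale, prior count 2; x axis) of each of the 41 genes, 1 point per library, with XHT points drawn above MOD points in each row. XHT points lie left of MOD points in most rows, and XHT 2 is the highest XHT point in 24 of 25 mitotic rows.

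Among the mitotic genes, Mki67, whose product coats mitotic chromosomes and marks cycling cells, had 2.73, 7.66 and 1.84 CPM in XHT 1, 2 and 3, against 38.5, 54.2 and 19.3 CPM in MOD 1, 2 and 3 (log2 fold change -3.19 ± 0.61, adjusted p = 0.0162). Even its highest XHT library stood well under its lowest MOD library. Top2a, the topoisomerase that untangles sister chromatids, averaged 4.20 ± 3.50 CPM in XHT and 30.4 ± 12.6 CPM in MOD (SD, n = 3 each) and fell, with a log2 fold change of -2.85 ± 0.70 (adjusted p = 0.0275).

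Of the genes for CDK1 and its cyclins, Cdk1 had 1.06, 3.70 and 0.817 CPM in XHT 1, 2 and 3, against 17.9, 26.1 and 6.28 CPM in MOD 1, 2 and 3. It fell, with a log2 fold change of -3.16 ± 0.73 (adjusted p = 0.0235), and MOD 3 was the lowest MOD library. Ccna2, cyclin A2, averaged 1.26 ± 1.36 CPM in XHT and 11.7 ± 6.81 CPM in MOD (SD, n = 3 each), with a log2 fold change of -3.20 ± 0.82 (adjusted p = 0.0308). All 6334 bases of Ccna2 lie within Exosc9 on the other strand, which held 2027 counts over the 6 libraries, so reads of that gene may be among its counts if strand was not used. Ccnb1, cyclin B1, had 1.20, 2.26 and 0.272 CPM in XHT 1, 2 and 3, against 7.06, 10.3 and 2.52 CPM in MOD 1, 2 and 3. Its groups did not overlap, and it missed the threshold (log2 fold change -2.40 ± 0.76, adjusted p = 0.0522).

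Of the kinases Plk1 and Aurka, 1 fell and the other did not pass. Plk1, which acts at centrosomes and kinetochores, averaged 1.48 ± 0.604 CPM in XHT and 6.89 ± 4.53 CPM in MOD (SD, n = 3 each) and fell, with a log2 fold change of -2.21 ± 0.60 (adjusted p = 0.0345). Aurka, the spindle pole kinase Aurora A, had 3.99, 4.14 and 4.83 CPM in XHT 1, 2 and 3, against 5.80, 7.61 and 4.42 CPM in MOD 1, 2 and 3. Its groups overlapped and it had the smallest change of the mitotic genes, -0.46 ± 0.29 on the log2 scale (adjusted p = 0.251). Aurkb, the Aurora B kinase of the chromosomal passenger complex, had 1.13, 2.83 and 0.953 CPM in XHT 1, 2 and 3, against 9.11, 13.2 and 4.63 CPM in MOD 1, 2 and 3 (log2 fold change -2.45 ± 0.55, adjusted p = 0.0227). Of its partners, Cdca8 (borealin) fell, with a log2 fold change of -2.23 ± 0.66 (adjusted p = 0.0437). Birc5 (survivin) had 0.399, 2.32 and 0.544 CPM in XHT 1, 2 and 3, against 5.53, 6.62 and 2.16 CPM in MOD 1, 2 and 3 and did not pass (log2 fold change -2.12 ± 0.73, adjusted p = 0.0654), and XHT 2 lay above MOD 3.

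Of the spindle checkpoint genes and their target Cdc20, 3 of 4 fell, beside 16.1% of all tested genes called lower. Bub1b, which codes for the checkpoint protein BUBR1, had 0.199, 0.942 and 0.272 CPM in XHT 1, 2 and 3, against 4.16, 7.36 and 3.65 CPM in MOD 1, 2 and 3 (log2 fold change -3.39 ± 0.62, adjusted p = 0.0148), the lowest adjusted p of the mitotic genes. Bub1, a checkpoint kinase, fell with a log2 fold change of -1.85 ± 0.48 (adjusted p = 0.0319). Ttk, the kinase MPS1, had 4, 18 and 0 counts in XHT 1, 2 and 3, against 79, 152 and 47 counts in MOD 1, 2 and 3. The single 0 lay in XHT 3, which allows up to 0.204 CPM, and Ttk fell with a log2 fold change of -3.30 ± 0.96 (adjusted p = 0.0422). Cdc20, the activator of the anaphase promoting complex that the checkpoint holds back, had 2.06, 4.90 and 1.157 CPM in XHT 1, 2 and 3, against 7.38, 12.1 and 6.22 CPM in MOD 1, 2 and 3 and missed the threshold without overlap of the groups (log2 fold change -1.66 ± 0.54, adjusted p = 0.0573).

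All 4 kinetochore genes were lower in every XHT library than in any MOD library, as were 26.6% of all tested genes. Of the 4 genes 3 passed the test, beside 16.1% of all tested genes called lower. Nuf2, which with Ndc80 forms part of the complex that grips microtubules, had 6, 18 and 1 counts in XHT 1, 2 and 3, against 153, 208 and 66 counts in MOD 1, 2 and 3. It had the most negative log2 fold change of all 41 members, -3.73 ± 0.80 (adjusted p = 0.0199), and rests on few reads in XHT. Ndc80 fell as well, with a log2 fold change of -2.52 ± 0.58 (adjusted p = 0.0235). Cenpe, a kinetochore motor, had 0.665, 1.76 and 0.612 CPM in XHT 1, 2 and 3, against 7.06, 13.2 and 4.73 CPM in MOD 1, 2 and 3 (log2 fold change -3.03 ± 0.57, adjusted p = 0.0156). Cenpf, a large kinetochore protein, had 0.598, 2.89 and 0.136 CPM in XHT 1, 2 and 3, against 8.22, 16.3 and 4.12 CPM in MOD 1, 2 and 3 (log2 fold change -2.97 ± 0.95, adjusted p = 0.0540). Cenpf did not pass although its groups were apart, and its XHT libraries differed widely.

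Among the spindle and mitotic entry genes, Tpx2, which activates Aurora A on spindle microtubules, had 0.798, 3.33 and 0.953 CPM in XHT 1, 2 and 3, against 11.1, 21.3 and 8.54 CPM in MOD 1, 2 and 3 (log2 fold change -3.00 ± 0.63, adjusted p = 0.0193). Cdca3, a promoter of mitotic entry, had 0.532, 1.57 and 0.544 CPM in XHT 1, 2 and 3, against 8.38, 12.5 and 4.06 CPM in MOD 1, 2 and 3 (log2 fold change -3.22 ± 0.60, adjusted p = 0.0152). In both genes XHT 2 was the highest XHT library and MOD 3 the lowest MOD library. Prc1, which bundles the microtubules of the central spindle, fell with a log2 fold change of -2.62 ± 0.62 (adjusted p = 0.0250). Nusap1, a microtubule-binding protein of the spindle, had 2.33, 6.34 and 1.77 CPM in XHT 1, 2 and 3, against 10.7, 14.5 and 7.05 CPM in MOD 1, 2 and 3 and did not pass (log2 fold change -1.62 ± 0.52, adjusted p = 0.0552).

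None of the 3 genes of cytokinesis, the splitting of the cell body, passed the test. Ect2, an activator of RhoA at the division plane, had 0.266, 2.64 and 0.476 CPM in XHT 1, 2 and 3, against 6.48, 8.10 and 3.40 CPM in MOD 1, 2 and 3 (log2 fold change -2.39 ± 0.80, adjusted p = 0.0598). Anln, anillin of the contractile ring, had 0.399, 3.26 and 0.817 CPM in XHT 1, 2 and 3, against 3.16, 9.09 and 4.99 CPM in MOD 1, 2 and 3 (log2 fold change -1.93 ± 0.76, adjusted p = 0.0921). Racgap1, a central spindle partner of Ect2, had 0.332, 1.07 and 0.204 CPM in XHT 1, 2 and 3, against 0.843, 1.38 and 1.59 CPM in MOD 1, 2 and 3 (log2 fold change -1.23 ± 0.64, adjusted p = 0.174). XHT 2 was the highest XHT library in all 3 genes, and in Anln and Racgap1 it lay above MOD 1, so that the groups overlapped.

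The spread within groups followed the same libraries through the mitotic class. XHT 2 was the highest XHT library for 24 of 25 mitotic genes, for 5 of 16 replication genes and for 5336 of all 14488 tested genes. The median ratio of XHT 2 to the mean of XHT 1 and XHT 3 was 3.68 for mitotic genes, 1.05 for replication genes and 0.997 for all tested genes. MOD 3 was the lowest MOD library for 23 of 25 mitotic genes and 12 of 16 replication genes, with median ratios to the mean of MOD 1 and MOD 2 of 0.416 and 0.757. Over all tested genes it was lowest for 6158, with a median ratio of 0.983. Since genes of a class are measured in the same libraries and share this pattern, they are not separate observations of it.

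By level per length, replication genes held both ends of the order in XHT. Pcna had the highest mean FPKM of the 41 genes in both groups, 53.3 ± 10.9 in XHT and 52.3 ± 8.56 in MOD (SD, n = 3 each). The 8 genes of highest mean FPKM were all replication genes in XHT, while in MOD 6 of the 8 were and the others were Cdk1 and Prc1. Next in both groups came Mcm7 and Rrm1. Mcm7 had 13.0 ± 2.57 FPKM in XHT and 13.1 ± 1.11 FPKM in MOD, and Rrm1 had 10.01 ± 0.787 FPKM in XHT and 13.4 ± 1.54 FPKM in MOD. In MOD these neighbours differed by less than their SD. At the low end, the replication gene Cdc6 ranked 41 of 41 in XHT with a mean of 0.111 FPKM and Ccne1 ranked 36, while Aurka, at 9, was the highest mitotic gene.

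The authors' deposited table of the same comparison listed 33 of the 41 genes as lower and 1, Gins2, as higher at an adjusted p under 0.05, against 13.7% and 13.4% of all genes with a p-value there. The 7 members that it did not list as changed were Mcm7, Cdc45, Pcna, Rrm1, Tyms, Aurka and Racgap1.

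Markers of cell types moved between the groups as well. Across all tested genes 16.1% were called lower and 12.4% higher. Of 12 fibroblast markers 9 fell, and their summed level was 1848 to 4674 CPM in XHT, highest in XHT 2, and 23107 to 62356 CPM in MOD, lowest in MOD 3. Of 12 macrophage markers 9 fell, with sums of 741 to 1058 CPM in XHT and 2262 to 3936 CPM in MOD, again with XHT 2 highest in its group and MOD 3 lowest. Of 9 endothelial markers 1 fell, and the sums overlapped, at 1657 to 1928 CPM in XHT and 1183 to 2053 CPM in MOD. Of 11 cardiomyocyte markers 1, Ryr2, passed the test and rose. All 11 had a positive log2 fold change, between 1.53 and 3.82 with a median of 2.15. For 9 of them every XHT library lay above every MOD library, as for 24.7% of all tested genes. Of 9 smooth muscle and pericyte markers 3 fell, Acta2, Tagln and Pdgfrb. Another 4, Rgs5, Abcc9, Kcnj8 and Cspg4, had positive log2 fold changes (0.92, 0.45, 0.13 and 0.05) and did not pass. The sums were 1232 to 1567 CPM in XHT and 1694 to 2328 CPM in MOD. None of the markers of these 5 lists was at 0 in a library.

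Markers of blood cells were at lower levels or uneven. Of 6 lymphocyte markers tested 2 fell, Cd4 and Cd8a. The other 4, Cd3e, Cd3d, Cd3g and Cd2, had positive log2 fold changes (0.85, 0.02, 0.49 and 0.10) and did not pass. The 11 in the table summed to 39.2 to 51.6 CPM in XHT and 73.5 to 78.9 CPM in MOD. Most of that was Cd4, with 31.0 to 40.6 CPM in XHT and 50.3 to 61.1 CPM in MOD. Cd5 and Ms4a1 were at 0 in some library. The 8 neutrophil markers summed to 14.2 to 129 CPM in XHT and 2.78 to 44.9 CPM in MOD. Mpo, Elane, Ngp and Mmp8 were at 0 in some library. Of the 5 neutrophil markers tested 0 passed. All 5 had positive log2 fold changes, between 0.41 and 3.15 with a median of 2.19. The 7 erythroid precursor markers summed to 1255, 3951 and 579 CPM in XHT 1, 2 and 3, against 218 to 648 CPM in MOD, and Rhag was at 0 in some library. Hbb and Hba1 made up most of that sum, with 1838 and 2078 CPM in XHT 2. Of the 5 erythroid markers tested, Hbb rose and Tfrc fell. In tissue RNA, fewer cells of a type and less RNA per cell cannot be told apart. The part of cell makeup in the levels of the 41 genes was not tested.

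Set against those markers, the mean log2 CPM of the mitotic genes minus that of the fibroblast markers was -5.33, -5.39 and -5.82 in XHT 1, 2 and 3, against -6.53, -6.16 and -6.43 in MOD 1, 2 and 3. Relative to the mean of the fibroblast markers the mitotic genes were thus higher in every XHT library than in any MOD library. The markers of that list differed widely, however. Dcn, Pdgfra, Tcf21 and Ddr2 had log2 fold changes of -0.57, -0.74, -0.35 and -0.08, smaller falls than the mitotic median of -2.52. The rest of the list fell further than that median, down to -6.63 for Postn. Relative to the macrophage markers the groups overlapped, with a mean of -4.61 ± 0.80 in XHT and -3.81 ± 0.53 in MOD (SD, n = 3 each). Relative to the endothelial markers the mitotic genes were lower in every XHT library, with means of -6.94 ± 0.94 in XHT and -4.07 ± 1.08 in MOD. The same held relative to the smooth muscle and pericyte markers, with -6.38 ± 0.85 in XHT and -4.27 ± 0.59 in MOD, and to the cardiomyocyte markers, with -11.3 ± 1.34 in XHT and -5.44 ± 2.67 in MOD. Of these 5 lists, the mitotic genes had a higher mean in XHT relative to the fibroblast list alone.

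**Figure D5:**
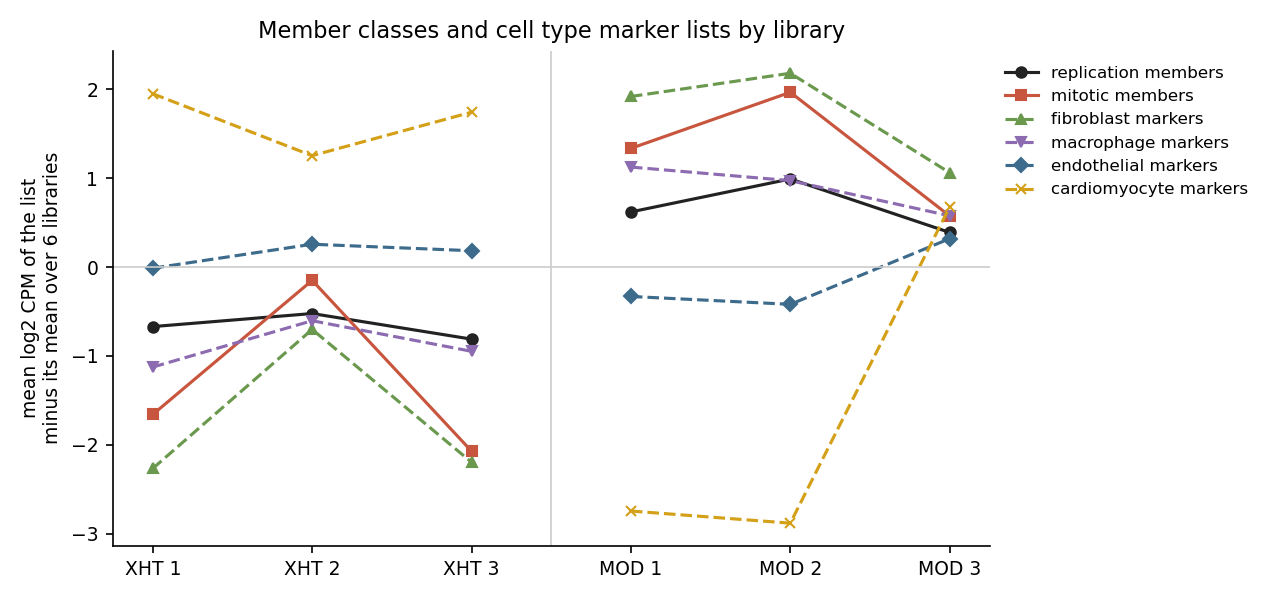
Mean log2 CPM of the replication genes, the mitotic genes and the cell type marker lists in each library, each minus its own mean over the 6 libraries (y axis); lines only join the points of a list. By this mean the replication genes, the mitotic genes, the fibroblast markers and the macrophage markers are each highest in XHT 2 within XHT. They are each lowest in MOD 3 within MOD. For the replication genes the spread within XHT is small, and XHT 2 is highest for 5 of 16 of them. Their summed level is lowest in XHT 2, with 218, 194 and 225 CPM in XHT 1, 2 and 3.

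Other genes of the same processes gave counts of the same kind. Of 49 further replication genes 47 were tested: 23 fell and 24 did not pass, with a median log2 fold change of -1.03. The called genes of lowest p were Uhrf1 (-2.59 on the log2 scale), which keeps DNA methylation through replication, Timeless (-1.71), of the fork protection complex, Dtl (-3.39), which marks licensing factors for degradation, and Chaf1b (-2.27), a histone chaperone subunit, with adjusted p of 0.0105, 0.0117, 0.0133 and 0.0137 in that order. Of 63 further mitotic genes 57 were tested: 38 fell and 19 did not pass, with a median of -2.06. Of all tested genes 16.1% were called lower. The called genes of lowest p were the centromere and kinetochore genes Cenpt (-4.12), Casc5 (-3.11), Cenpk (-3.13) and Pmf1 (-1.52), with adjusted p of 0.0105, 0.0106, 0.0106 and 0.0144 in that order. The median ratio of XHT 2 to the mean of XHT 1 and XHT 3 was 1.02 for the further replication genes and 1.67 for the further mitotic genes. Without XHT 3, MOD 1 or MOD 2 the replication list had 2 or 3 genes called lower and the mitotic list 3. The shares of all tested genes called lower in these fits were 1.92%, 2.55% and 3.87%. Without XHT 1 edgeR called 0 in either list, against 0.0267%, with 26 and 40 genes at an unadjusted p under 0.05.

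Of 25 regulators of cell cycle transcription, 7 fell and 3 rose, with a median log2 fold change of -0.11. Beside the 16.1% and 12.4% of all tested genes called lower and higher, the number that rose is near the background. E2f1 codes for an activating E2F of the G1 to S step. It had 2.06, 2.89 and 1.91 CPM in XHT 1, 2 and 3, against 11.3, 17.04 and 8.54 CPM in MOD 1, 2 and 3 (log2 fold change -2.42 ± 0.34, adjusted p = 0.0106). Mybl2, which codes for B-MYB, had 0.266, 0.753 and 0.0680 CPM in XHT 1, 2 and 3, against 7.11, 9.34 and 3.76 CPM in MOD 1, 2 and 3 (log2 fold change -4.17 ± 0.71, adjusted p = 0.0133). Both were lower in every XHT library than in any MOD library. Mybl1 fell with a log2 fold change of -1.80 ± 0.36 (adjusted p = 0.0169), as did Foxm1 (-1.63 ± 0.42, adjusted p = 0.0308) and Nfya, an NF-Y subunit (-0.86 ± 0.22, adjusted p = 0.0287). Foxm1 and Nfya were singled out after their values were seen. Of the 25 regulators 15 did not pass, and 11 had a positive log2 fold change. E2f6, an E2F that represses transcription, had 163, 119.6 and 137 CPM in XHT 1, 2 and 3, against 23.0, 21.9 and 59.6 CPM in MOD 1, 2 and 3 (log2 fold change 2.01 ± 0.41, adjusted p = 0.0183). It was the regulator with the largest rise, and MOD 3 was the highest of its MOD libraries. Rb1, the retinoblastoma gene that restrains E2F factors, rose by 0.63 ± 0.17 on the log2 scale (adjusted p = 0.0370), and Lin37, a MuvB subunit, by 0.76 ± 0.20 (adjusted p = 0.0329). With libraries scaled to total counts, neither Rb1 (adjusted p = 0.366) nor Lin37 (adjusted p = 0.205) was called.

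The anaphase promoting complex, which CDC20 activates, was measured through 15 subunits. Of these, 1 fell and 2 rose, with a median log2 fold change of -0.38, counts no higher than or near the 16.1% and 12.4% of all tested genes. Anapc1 fell with a log2 fold change of -0.88 ± 0.22 (adjusted p = 0.0301). Anapc13 rose by 0.91 ± 0.20 (adjusted p = 0.0205) and Anapc16 by 0.77 ± 0.18 (adjusted p = 0.0230) on the log2 scale, and with total count scaling neither rise was called (adjusted p = 0.0565 and 0.144).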

How the data were processed

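The members, their 2 classes and the other gene lists were chosen with earlier results of these data known. Per the labels' protocols, poly(A) RNA was made into dUTP-stranded libraries with molecular identifiers and sequenced in pairs. Per the submitters' processing notes, featureCounts 1.5.0-p3, HISAT2 2.0.5, DESeq2 1.16.1 and StringTie 1.3.3b were used. Their order, the genome build, the use of strand in counting and any collapsing of PCR copies are unknown from the labels and files at hand. A single table of the whole series was deposited. Its count columns hold raw counts per gene, per the file headers. Its FPKM columns are counts over gene length and a library constant other than the total, per the file headers and a check of the values; they served for levels per length and were not tested. The deposited group means, on a normalised signal scale, were not used. Log2 fold changes and p-values from the authors' own comparison are as deposited and are only described.

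From the counts, R 4.3.3 with edgeR 4.0.16 gave TMM scaling, a filter by filterByExpr (count of at least 10, total of at least 15) and robust quasi-likelihood tests of the 2 groups with no other term, adjusted over 14488 genes after Benjamini and Hochberg (threshold 0.05). CPM are on the TMM scale, and a prior count of 2 entered log2 CPM. TMM factors were 0.871, 0.918 and 0.830 in XHT and 1.12, 1.22 and 1.10 in MOD. The common biological coefficient of variation was 0.348. No libraries were duplicates: over all pairs, chi-square per degree of freedom was at least 42.6.

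Values per library were given for the Mcm subunits, the 8 members of lowest p in each class and every member that did not pass or went the other way; from each other list the 4 called genes of lowest p and those against its majority were named. Expression of symbols not found in the table (Ccnb2; Dna2 and Chek1; Knl1, Nsl1, Sgo1, Sgo2, Cdca5 and Cks2) was not analysed here, although the older symbols Casc5, Sgol1 and Sgol2 were tested. The alternatives were DESeq2 size factors, total count scaling, no count filter, DESeq2 1.42.0 (Wald test), the replicate number as a block, each library left out, a prior count of 0.5, a class split without genes of both phases, and a shorter promoter window; the legacy quasi-likelihood fit was added after the data were seen. Promoters come from RefSeq (GRCr8) by symbol.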

Additional observations from a re-analysis of the deposited data

How the results depend on the processing

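The calls depended most on single libraries. Over the fits that left out 1 library each, the genes called ran between 8 and 6908, the members called lower between 0 and 32, those of replication between 0 and 10 and those of mitosis between 0 and 23. The further replication genes called lower ran between 0 and 27 and the further mitotic genes between 0 and 44. Of all tested genes the share called lower ran between 0.0267% and 22.9%. A count of 0 mitotic members came from edgeR's fits without XHT 1, XHT 3, MOD 1 or MOD 2, with 18, 20, 22 and 19 of them at an unadjusted p under 0.05. The median log2 fold change ran between -3.53 and -2.11 for mitotic members and between -1.42 and -1.10 for replication members, and the distance between the classes between 0.99 and 2.15. Each of these fits has fewer samples.

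With total count scaling the replication median was -1.70. Called lower were 11 replication members, 22 mitotic members, 31 further replication genes and 43 further mitotic genes, against 29.8% of all tested genes. DESeq2's Wald test called 33 members lower, 10 of replication and 23 of mitosis, against 16.6% of all tested genes. DESeq2 size factors, no count filter and the legacy fit, which was chosen after seeing the data, each called 25, against 15.7%, 10.7% and 15.4%. Without members of both phases the distance between the classes was 1.27.

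With the replicate number as a block, 4410 genes were called, 32 members lower (15.9% of all tested genes were), 23 of them mitotic, the distance between the classes was 1.49, and Gins2 was not called (adjusted p = 0.0562). Deviations of same-numbered libraries correlated at -0.07, 0.25 and 0.12 for numbers 1, 2 and 3, and XHT 1 correlated best with MOD 3 (0.15), so the numbers were not taken to pair the samples.

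Of the members, Pcna and Mcm7 turned sign. The log2 fold change of Pcna was 0.015 with DESeq2 size factors, 0.0028 without a filter, 0.025 by the Wald test and between -0.16 and 0.12 with 1 library left out. That of Mcm7 was between -0.21 and 0.06 (0.060 without XHT 3) with 1 library left out. The cause was not tested.

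Between 100 bases before and 50 after the start, E2F matches stood in 66.7% of replication, 13.6% of mitotic and 5.69% of all promoters. CHR matches stood in 8.33%, 77.3% and 8.86%, and at least 2 CCAAT boxes in 41.7%, 27.3% and 3.75%. Genes under about 1 CPM in XHT, such as Nuf2, Cdc6 and Ttk, rest on few reads.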
